A study of Mus musculus with 27 samples.

Results

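Gene expression in embryonic mouse cortex labelled as lacking Tbr2 was compared with that of E13 embryos, where E stands for embryonic day, on 11 of the 27 Illumina BeadChip arrays of the study. The members are the 5 arrays labelled Tbr2 conditional knockout (cKO), embryonic cortex, at E13 and the 6 arrays labelled E13 embryo. The other arrays, of E16 embryos, E16 cKO cortex and GFP-positive neurons at postnatal day 2, shared the normalisation and the estimate of spread. The signal columns of the E13 embryo arrays carry the letters WT, read here as wild type, and their labels name no tissue. The labels give neither the Cre driver nor the deleted exons of the cKO, nor the strain, nor whether a sample is 1 embryo or a pool, and nothing says that samples came from separate embryos, so p-values measure only the spread between these samples. A protocol that describes sorted GFP+ neurons is repeated for all samples, although the E13 labels name no sort. The cKO and embryo signals came in separate tables, so table and genotype cannot be told apart. Array numbers follow column order in each group and serve as names only.

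Tbr2 is the protein of Eomes, a T-box transcription factor made by the intermediate progenitors of the developing cortex. Radial glia, the stem cells that line the ventricle, give rise to intermediate progenitors, which divide away from the ventricle and produce most excitatory cortical neurons. As progenitors become neurons, Pax6, Tbr2 and Tbr1 are made one after another. Intermediate progenitors also secrete the chemokine Cxcl12, which attracts migrating interneurons, and Tbr2 is needed for cortical regional identity.

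Markers of cortex were present on all 11 arrays. Fezf2, a transcription factor of deep-layer cortical neurons, had a normalised log2 signal of 13.09 to 13.63 in the embryo arrays and 13.31 to 13.71 in the cKO arrays. Emx1, which marks the dorsal forebrain, was above background on all 11 arrays. Between 38.1% and 40.01% of 45281 probes were detected per array, and the correlation between any pair of E13 arrays was 0.965 to 0.993 over 10663 genes. All levels below are log2 signals after background correction and joint quantile normalisation, and a difference of 1 is a 2-fold change. A gene was called at an adjusted p under 0.05 by limma (Benjamini-Hochberg over 10663 genes).

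Array 2 of the cKO group lay at the levels of the embryo arrays. The check used 54 genes called between cKO and embryo on the E16 arrays, none of which are E13 arrays. The E13 arrays shared the normalisation and the estimate of spread, so the choice of genes was not fully independent of them. In the direction seen at E16, cKO arrays 1, 3, 4 and 5 lay outside the range of the E13 embryo arrays at 41, 40, 38 and 39 of these genes, and array 2 did so at 7. The mean difference from the E13 embryo mean in that direction was 0.91, 0.82, 0.76 and 0.80 on the log2 scale in arrays 1, 3, 4 and 5. Array 2 was at 0.042, within the -0.19 to 0.17 of single embryo arrays. On the first principal component of the 11 E13 arrays, which held 30.8% of the variance, array 2 was at 10.6, inside the 0.52 to 17.7 of the embryo arrays, while the other cKO arrays were at -34.9 to -6.23. Array 2 is therefore described as the array labelled cKO 2. The numbers of higher and lower genes among all genes tested are also given without it. For the gene lists, the plot of called genes per list shows the counts without it, and the text gives only some of them.

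**Figure D1:**
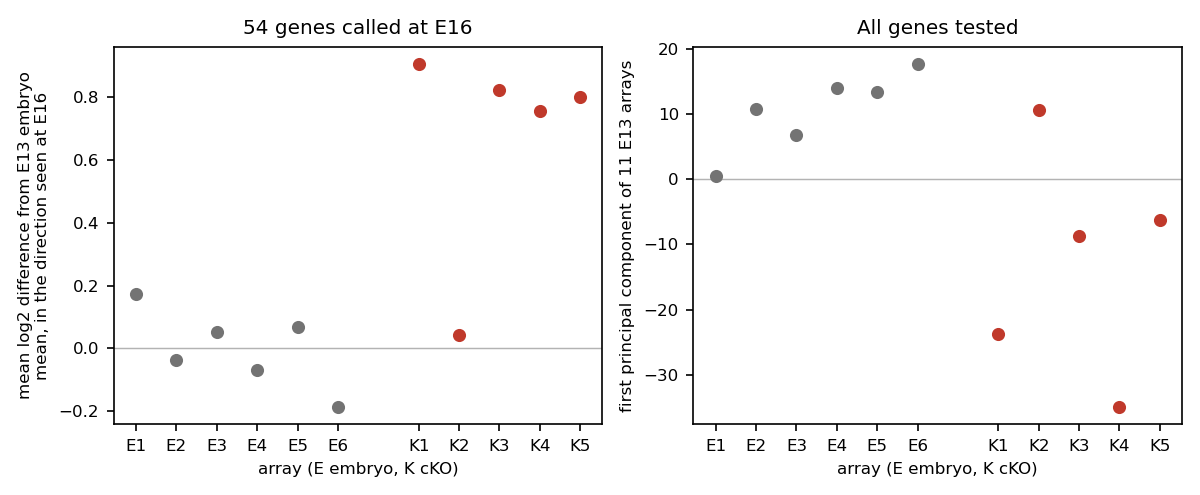
The 11 E13 arrays by their mean log2 difference from the E13 embryo mean over 54 genes called at E16 (left, signed by the E16 direction) and by their first principal component (right, arbitrary units). Each point is 1 array (grey embryo E1 to E6, red cKO K1 to K5). Array K2 sits among the embryo arrays in both panels, and K4 is the farthest out on the right at -34.9.

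Array 4 of the cKO group stood apart in another way, with markers of other tissues. Its median correlation with the other E13 arrays was 0.972, and the other 10 arrays were at or above 0.980. Ttr, the transthyretin gene that defines choroid plexus, was at 12.47 on array 4, at 4.77 to 7.26 on the other cKO arrays and at 4.70 to 7.37 on the embryo arrays. The mean level of 2 measured erythroid genes (Hba-a1 and Hbb-y) was 13.8 on array 4 and at most 7.94 on any embryo array. Over 12 measured endothelial and pericyte genes the mean level was 6.13 on array 4, against 4.82 to 4.92 in the embryo arrays and at most 4.95 on the other cKO arrays. For 10 microglia genes it was 5.58 against 4.67 to 4.85 in the embryo arrays, for 14 choroid plexus and hem genes 7.99 against 6.52 to 7.15, and for 20 ventral progenitor and interneuron genes 8.65 against 6.75 to 7.58. Among 8 meninges genes, which include Cxcl12, array 4 was at 7.49 and the embryo arrays at 6.46 to 6.67. The sex-linked transcript Xist was high on embryo arrays 1, 2 and 5 and on cKO arrays 2 and 4, so both sexes were present in both groups.

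The defining markers of those other cells did not pass the test with all arrays. The endothelial gene Cldn5 was at 7.60 on cKO array 4 and not above background on any of the other 10 arrays. The microglial gene C1qb was at 6.61 on cKO array 4 and likewise not above background elsewhere. Col1a2, a collagen gene of meninges, was not above background on any E13 array. Gad1, the GABA synthesis enzyme of interneurons, was at 8.58 on array 4 and at 4.53 to 5.62 on the other cKO arrays. Dlx2, a transcription factor of ventral progenitors, was at 9.33 on array 4 and at 5.16 to 6.75 on the others. Without array 4 the median change over the 20 ventral genes went from 0.41 to 0.06, over 12 endothelial genes from 0.25 to 0.01, and over 2 erythroid genes from 1.99 to 0.63. The part of these cells in other results was not tested, and the adjusted p without array 4 is given for the genes described below that lose their call without it. In bulk samples, fewer cells of a type and less RNA per cell cannot be told apart.

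**Figure D2:**
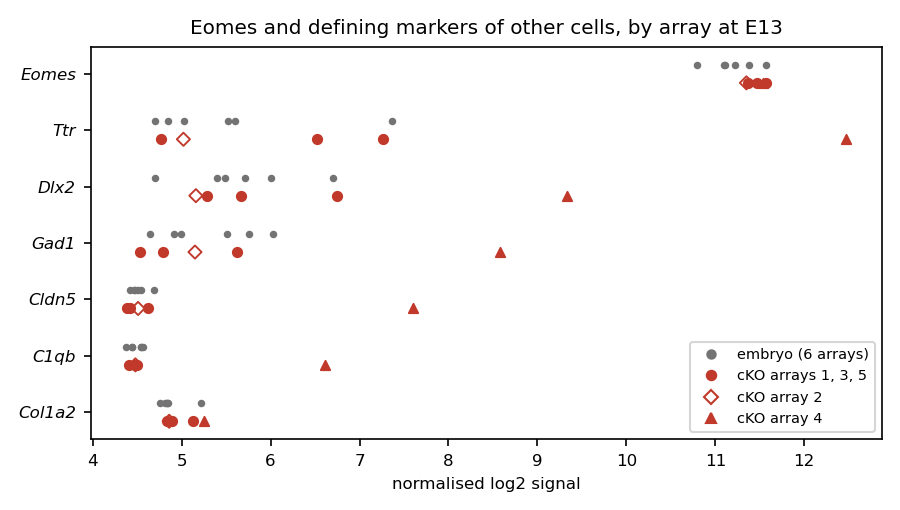
Normalised log2 signal of Eomes and of defining markers of choroid plexus (Ttr), ventral progenitors and interneurons (Dlx2, Gad1), endothelium (Cldn5), microglia (C1qb) and meninges (Col1a2) on each E13 array. Grey points are the 6 embryo arrays, filled red circles cKO arrays 1, 3 and 5, the open diamond cKO array 2 and the triangle cKO array 4. Array 4 is highest for Ttr (12.47), Dlx2, Gad1, Cldn5 and C1qb, while Eomes overlaps between groups.

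The targeted gene Eomes (on chromosome 9) was not lower on the cKO arrays. Its brighter probe, ILMN_1251446, read 11.22, 11.38, 11.57, 11.10, 10.79 and 11.11 on the embryo arrays and 11.47, 11.35, 11.37, 11.54 and 11.57 on the cKO arrays. The groups overlapped, and the change of 0.27 ± 0.20 (SE, n = 5 against 6) had an adjusted p of 0.78 by limma, with a 95% interval of -0.14 to 0.67. The second probe, ILMN_2570496, read 9.54 to 10.34 on the embryo arrays and 10.22 to 10.78 on the cKO arrays, a change of 0.45 with an interval of 0.0038 to 0.90. The position of both probes relative to the deleted part of the gene is not given in the sources used here, so these levels do not check the labels.

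With all 5 cKO arrays, 81 genes were higher (0.76% of 10663 tested) and 78 lower (0.732%) than in the E13 embryo arrays. At least a 2-fold difference was seen for 37 genes in each direction, and the median change over all genes was 0.0017. Without array 2, 194 genes were higher (1.82%) and 169 lower (1.58%), including all 81 and all 78 of the first set. These counts are favoured by leaving out the array that resembled the other group. Of the 159 called genes, 130 had array 2 inside the embryo range and 146 had the 4 other cKO arrays all outside it, which was so for 5.94% of all genes. The genes were called on these same arrays, so the 146 is partly built in by the selection. No share over all genes is given for array 2 inside the range. At 18 called genes all 5 cKO arrays were outside it.

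These counts rest on few arrays. Without cKO array 1, 3, 4 or 5 they were 18 and 16, 35 and 29, 26 and 21, and 37 and 30 higher and lower genes. Without embryo array 4 they were 51 and 43, without embryo array 5 58 and 45, and without embryo array 6 48 and 50. When only the E13 groups entered the fit, 7 genes were higher and 4 lower, and with array 2 also left out 297 and 203. Of 55 named genes that passed, 37 lost the call without cKO array 1, 32 without array 4 and 25 each without arrays 3 and 5. Without arrays 2 and 4, 54 passed, Unc5c being the exception (adjusted p 0.0536 by limma). Genes at the border of the call were Nos1 and Tfap2d, at an adjusted p of 0.0499892 (0.231 for Nos1 without array 4), and Zfp423 and Chn2 on the other side at 0.0510148 and 0.0515468 by limma.

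The largest rise belonged to Pdzrn3, which encodes a ubiquitin ligase with PDZ domains. Its log2 signal was 7.56, 8.78 and 9.33 (lowest, median and highest) in the embryo arrays and 12.69, 8.32, 12.70, 12.21 and 12.54 on cKO arrays 1 to 5. Array 2 lay inside the embryo range and the other 4 arrays lay well above it. The mean difference was 3.14 ± 0.50 (SE), an 8.82-fold rise with an adjusted p of 0.00145 by limma, and 15.8-fold without array 2.

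Transcription factors and cofactors were among the higher genes. Gbx2, a homeobox factor of thalamic neurons that is normally low in cortex, was at 6.69, 7.44 and 8.25 (lowest, median and highest) in the embryo arrays. Its cKO arrays read 10.99, 7.48, 10.38, 10.36 and 10.32, so that all but array 2 were above every embryo array. Gbx2 rose by 2.51 ± 0.61 (adjusted p 0.0297), and lost its call without array 4 (2.40, adjusted p 0.108). Lmcd1, a LIM-domain cofactor, read 6.17 to 6.54 in the embryo arrays and 9.28, 6.43, 9.47, 8.98 and 8.87 on the cKO arrays, a rise of 2.25 ± 0.50 with an adjusted p of 0.0169 (0.0727 without array 4). Ebf1, a helix-loop-helix factor of several neuron classes, was at 6.51 to 7.45 in the embryo arrays and at 8.66, 7.38, 8.64, 8.61 and 8.66 on the cKO arrays. The rise of 1.41 ± 0.22 had an adjusted p of 0.00145, and of 0.00767 without array 4. Olig3, a factor of thalamic and other dorsal progenitors, rose by 1.04 ± 0.27 (adjusted p 0.0475, and 0.14 without array 4).

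Higher genes also included Th, Adcyap1, Gal and Rgs4, which take part in transmitter, peptide or G protein signalling, while the peptide gene Nts and the peptide receptor gene Sstr2 were lower. Th, tyrosine hydroxylase of dopamine synthesis, was above background on 1 of 6 embryo arrays, with a highest level of 5.68, and read 8.02, 5.30, 7.19, 7.85 and 7.05 on the cKO arrays. Its rise was 1.98 ± 0.30 (adjusted p 0.00145). Adcyap1, the precursor of the peptide PACAP, was at 8.10, 8.34 and 8.54 (lowest, median and highest) in the embryo arrays and at 10.50, 8.44, 10.47, 10.40 and 10.44 on the cKO arrays. Those 4 cKO arrays lay within 0.1 of each other, about 2 log2 units above array 2, and the rise of 1.71 ± 0.33 had an adjusted p of 0.00712. Gal, the precursor of galanin, read 5.45 to 6.75 in the embryo arrays and 8.56, 6.16, 8.35, 7.70 and 7.93 on the cKO arrays (rise 1.79 ± 0.33, adjusted p 0.00461). Rgs4, which shortens signals of G proteins and is listed here with thalamus genes, was at 6.94 to 8.09 in the embryo arrays and at 10.99, 7.61, 10.38, 10.13 and 10.57 on the cKO arrays. Its rise was 2.39 ± 0.53 (adjusted p 0.0161), and 0.062 was its adjusted p without array 4.

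Some higher genes were not above background in any embryo array, so their fold is a lower bound. Slco4a1, an organic anion transporter, had 4.66 to 5.21 on the embryo arrays and 8.03, 5.10, 7.52, 7.67 and 7.36 on the cKO arrays, at least 2.83-fold higher (adjusted p 0.00145). Nbl1, a secreted antagonist of BMP signals, had 4.49 to 4.84 and then 7.75, 4.73, 7.36, 7.58 and 6.46, at least 2.20-fold higher (adjusted p 0.00145). Ptpn14, a tyrosine phosphatase, was at least 1.46-fold higher (adjusted p 0.00401). All 3 genes were above background on the 4 cKO arrays other than array 2. In all, 12 called genes were not above background on any embryo array and 3 on no cKO array.

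The other leading rises covered lipid metabolism, cell polarity and membrane traffic. Slc27a2, an acyl-CoA synthetase of very long fatty acids, rose 4.67-fold, from 6.23 to 7.44 in the embryo arrays to 9.34, 6.93, 8.96, 9.51 and 9.81 on the cKO arrays (adjusted p 0.00145). Insc, an adaptor that orients the mitotic spindle, read 8.52, 6.13, 7.78, 8.32 and 7.49 on the cKO arrays against 5.74 to 6.63, a rise of 1.62 ± 0.35 (adjusted p 0.0157, and 0.0731 without array 4). Lamp5, a vesicle membrane protein of neurons, rose by 1.49 ± 0.32 (adjusted p 0.0157, and 0.0585 without array 4). Fam122b was the leading gene at which array 2 left the embryo range too. It was at 6.77 to 6.96 in the embryo arrays and at 8.53, 7.22, 8.62, 8.43 and 8.67 on the cKO arrays (rise 1.44 ± 0.23, adjusted p 0.00145).

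**Figure D3:**
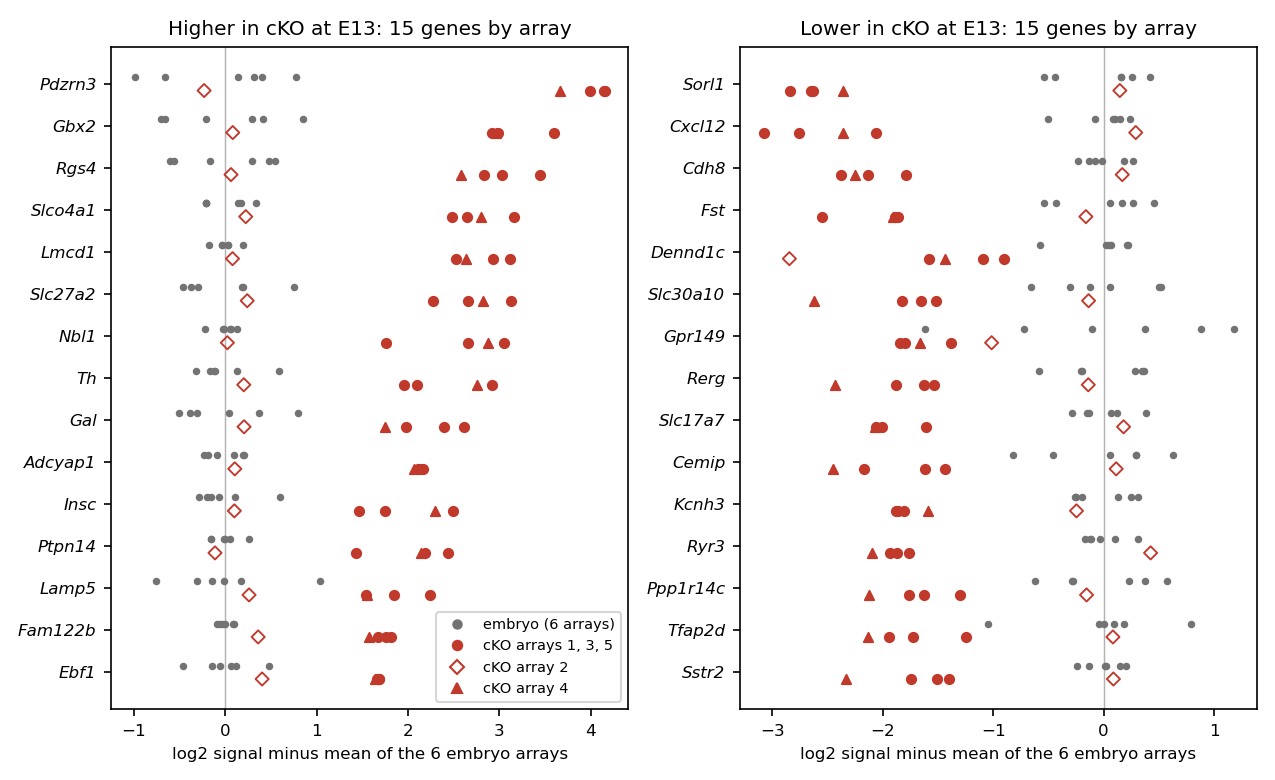
The 15 largest rises (left) and the 15 largest falls (right) among called genes, predicted genes left out, as log2 signal minus the mean of the 6 embryo arrays. Grey points are embryo arrays, filled red circles cKO arrays 1, 3 and 5, the open diamond cKO array 2 and the triangle cKO array 4. The diamond lies among the grey points for most genes, and apart from them at Dennd1c and Fam122b.

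The deepest fall was that of Sorl1, a sorting receptor of the endosome. It was at 9.63, 10.33 and 10.59 (lowest, median and highest) in the embryo arrays and at 7.33, 10.32, 7.52, 7.81 and 7.54 on the cKO arrays. Array 2 equalled the embryo median to within 0.1 and the other 4 were below every embryo array. The fall was 4.19-fold (log2 -2.07 ± 0.38, adjusted p 0.00439).

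The chemokine gene Cxcl12 and the follistatin gene Fst were lower, whereas other genes of secreted proteins, such as Nbl1 and Gal, were higher. Cxcl12, a chemokine of intermediate progenitors, is also listed here with meninges genes, and which cells account for its change was not tested. It read 8.21, 8.80 and 8.95 (lowest, median and highest) in the embryo arrays and 5.95, 9.0, 6.65, 6.35 and 5.63 on the cKO arrays. Array 2 lay above every embryo array and the other 4 lay below all of them. The change was -1.99 ± 0.42, or 3.98-fold lower, with an adjusted p of 0.0124, of 0.0556 without array 4 and of 5.39e-06 without array 2. Cxcr4, its receptor, changed by 0.07 (adjusted p 0.979), at 8.55 to 8.86 on the cKO arrays and 8.28 to 8.94 on the embryo arrays. Fst, follistatin, which binds activin, was at 7.28, 7.94 and 8.28 in the embryo arrays and at 5.27, 7.66, 5.93, 5.91 and 5.96 on the cKO arrays. Its change was -1.67 ± 0.37 (adjusted p 0.0157, and 0.0624 without array 4). Smad5, an intracellular transducer of BMP signals, was 1.39-fold lower (adjusted p 0.0217, and 0.0904 without array 4). Of 24 activin, follistatin and BMP genes, these 2 were lower, 0 were higher and 22 did not pass. Over all genes tested, 0.732% were lower and 0.76% higher.

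Among the T-box and AP-2 transcription factors, Tbr1, which specifies deep-layer cortical neurons, was lower. It read 12.24, 12.42 and 12.59 (lowest, median and highest) in the embryo arrays and 10.67, 12.55, 11.22, 10.75 and 11.10 on the cKO arrays. The 4 cKO arrays other than array 2 were at least 1 log2 unit below the embryo range, and the change was -1.16 ± 0.26 (adjusted p 0.0162, and 0.0865 without array 4). Tfap2d, an AP-2 factor, was at 6.56 to 8.40 in the embryo arrays and at 5.88, 7.69, 6.36, 5.47 and 5.66 on the cKO arrays (-1.39 ± 0.36, adjusted p 0.0499892, and 0.21 without array 4).

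Some cell adhesion genes were lower and most of those listed did not pass. Cdh8, a classical cadherin that marks cortical areas, was at 7.51, 7.69 and 8.01 (lowest, median and highest) in the embryo arrays and at 5.36, 7.91, 5.95, 5.49 and 5.61 on the cKO arrays. The 4 arrays other than array 2 did not overlap the embryo arrays, and the fall was 3.2-fold (-1.68 ± 0.29, adjusted p 0.00276). Cdh13, an anchored cadherin, was 1.72-fold lower (adjusted p 0.03, and 0.097 without array 4). Of 13 classical cadherin genes measured these 2 passed, where 0.732% of all genes were lower, with a median of -0.20 over the list against 0.0017 over all genes. Of 9 delta protocadherin genes, homophilic adhesion proteins of neurons, 3 were lower and 0 higher, with a median of -0.33. Pcdh20 read 6.59 to 7.61 in the embryo arrays and 5.86, 6.98, 6.29, 5.75 and 6.36 on the cKO arrays (-0.99 ± 0.20, adjusted p 0.00859). Pcdh19 was 1.74-fold lower (adjusted p 0.0255) and Pcdh17 1.53-fold lower (adjusted p 0.0157), and both lost their call without array 4 (adjusted p 0.0939 and 0.081). Of 17 genes of the L1, contactin and DSCAM families and their relatives, Negr1 was lower (-1.16 ± 0.28, adjusted p 0.0299, and 0.113 without array 4). Nrcam was 1.48-fold lower (adjusted p 0.0429, and 0.188 without array 4). The other 15 did not pass, and the median of the list was -0.02.

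Of 17 Robo, Slit, netrin receptor and Flrt genes, 4 were lower, 1 was higher and 12 did not pass, where 0.732% of all genes were lower and 0.76% higher. Without array 4, 2 of the 17 were lower and 0 higher. Robo2, a receptor for Slit repellents, held a tight range of 9.39 to 9.52 in the embryo arrays and read 7.77, 9.47, 7.84, 7.92 and 8.04 on the cKO arrays. Without overlap other than array 2, the change was -1.24 ± 0.22 (adjusted p 0.00338). Robo1, its relative, was at 11.40 to 11.65 in the embryo arrays and 11.41 to 11.68 on the cKO arrays (-0.02, adjusted p 0.988). Slit3, a ligand of the family, was at 6.35 to 7.23 and at 5.15, 6.43, 5.84, 5.85 and 5.53 (-0.97 ± 0.19, adjusted p 0.00948), above background on 3 of 5 cKO arrays. Unc5c, a netrin receptor, was 2.21-fold lower (adjusted p 0.0421, and 0.112 without array 4), and Neo1, neogenin, 1.42-fold lower (adjusted p 0.0157, and 0.086 without array 4). Flrt3, a ligand of Unc5 and Robo proteins, rose instead, from 10.52 to 10.81 in the embryo arrays to 11.91, 10.95, 11.57, 11.76 and 11.94 on the cKO arrays, with all 5 above the embryo range (0.94 ± 0.21, adjusted p 0.0157, and 0.062 without array 4).

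Of 14 Eph receptor and ephrin genes, 2 were lower and 0 higher, where 0.732% of all genes were lower and 0.76% higher. Epha7, whose graded expression guides thalamic axons in the cortex, was 1.96-fold lower (adjusted p 0.0157) and Epha5 1.76-fold lower (adjusted p 0.0217). Of 23 semaphorin, neuropilin and plexin genes, Sema3a (1.81-fold, adjusted p 0.0255) and Sema6d (1.56-fold, adjusted p 0.0332) were lower, and Nrp1, a receptor of Sema3a, was higher (1.51-fold, adjusted p 0.0443). Sema6d has a second probe of opposite sign. Without array 4, these 5 genes lost their call, with adjusted p 0.0727 for Epha7, 0.111 for Epha5, 0.117 for Sema3a, 0.136 for Sema6d and 0.14 for Nrp1.

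Among lists of synaptic vesicle, receptor and channel genes, single members passed, where 0.732% of all genes were lower and 0.76% higher. Slc17a7, the vesicular glutamate transporter VGLUT1, read 8.01, 8.27 and 8.68 (lowest, median and highest) in the embryo arrays and 6.29, 8.48, 6.69, 6.23 and 6.24 on the cKO arrays (-1.51 ± 0.32, adjusted p 0.0128, and 0.062 without array 4). Slc17a6, the transporter VGLUT2, differed by -0.17 (adjusted p 0.762). Slc17a7 was the 1 gene of 22 in the synaptic vesicle list that passed. Kcnh3, a potassium channel, was at 6.19 to 6.76 in the embryo arrays and at 4.57, 6.20, 4.64, 4.86 and 4.58 on the cKO arrays, where it was above background on array 2 alone (-1.47 ± 0.30, adjusted p 0.0104). Ryr3, a calcium release channel, fell from 7.21 to 7.69 to 5.44, 7.80, 5.50, 5.28 and 5.61 (-1.45 ± 0.30, adjusted p 0.0112, and 0.062 without array 4), although 1 of its other probes had the opposite sign. Gria3, an AMPA receptor subunit, was 1.98-fold lower (adjusted p 0.0107) and the only call among 18 glutamate and GABA receptor genes. Kcnd2, a potassium channel, was 1.46-fold higher (adjusted p 0.0124) and the only call among 27 listed voltage-gated channel genes, which do not include Kcnh3.

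The remaining leading falls had varied roles. Slc30a10, a manganese exporter, had a lowest level of 9.82 and a median of 10.44 in the embryo arrays and was at 8.65, 10.34, 8.82, 7.85 and 8.96 on the cKO arrays (2.94-fold, adjusted p 0.0078). Rerg, a small GTPase, fell 2.88-fold (adjusted p 0.00553). Cemip, which takes part in hyaluronan breakdown, fell 2.85-fold (adjusted p 0.0291, and 0.14 without array 4), and Ppp1r14c, an inhibitor of a protein phosphatase, 2.63-fold (adjusted p 0.0217, and 0.11 without array 4). Gpr149, an orphan receptor, was above background on 5 of 6 embryo arrays and on no cKO array, at least 1.68-fold lower (adjusted p 0.0157, and 0.062 without array 4). Its embryo arrays ranged widely, from 4.80 to 7.59. Dennd1c, a Rab exchange factor, was exceptional in that array 2 was the lowest of all. It read 8.47 to 9.27 in the embryo arrays and 7.46, 6.20, 7.95, 7.61 and 8.14 on the cKO arrays, a fall of 2.98-fold with all arrays and 2.39-fold without array 2 (adjusted p 0.00235 and 0.000753).

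Genes of intermediate progenitors split. Of 18 measured, 1 rose, 1 fell and 16 did not pass, with a median of 0.05. Over all genes tested, 0.76% were higher and 0.732% lower. Sstr2, a somatostatin receptor of intermediate progenitors and newborn neurons, read 12.29, 12.54 and 12.73 (lowest, median and highest) in the embryo arrays and 11.13, 12.62, 11.02, 10.20 and 10.79 on the cKO arrays (-1.38 ± 0.24, adjusted p 0.00284). Insm1, a zinc finger factor that promotes the birth of intermediate progenitors, rose instead, from 12.30 to 12.68 in the embryo arrays to 13.50, 12.42, 13.31, 13.51 and 13.22 (0.69 ± 0.17, adjusted p 0.0375, and 0.161 without array 4). Neurog2 and Neurod1, helix-loop-helix factors of the same lineage, differed by -0.09 and 0.00 (adjusted p 0.968 and 1). None of 20 radial glia genes and 19 Notch pathway genes passed with all arrays, at medians of 0.29 and 0.08. The radial glia median was 0.13 without array 4, which had their highest mean level, 8.72, against 7.57 to 7.87 in the embryo arrays.

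Proliferation genes showed a small shift with no call. The 26 genes of DNA replication and G1/S had a median change of 0.29 and a mean level of 9.34 to 9.67 on the cKO arrays against 8.999 to 9.42 on the embryo arrays, ranges that overlapped. The 19 mitosis genes had a median of 0.24 and a mean level of 9.20 to 9.60 against 8.98 to 9.40. No gene of either list passed with all arrays, 1 replication gene was higher without array 2, and the medians were 0.33 and 0.23 without array 4.

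Neuronal identity lists changed at single genes. Of 27 cortical area patterning genes, 4 were lower (Cdh8, Epha7, Mpped1 and Tbr1) and 0 higher, with a median of -0.08, where 0.732% of all genes were lower and 0.76% higher. Without array 4, Cdh8 was the 1 of them still called. Mpped1 was 1.92-fold lower (adjusted p 0.0302, and 0.103 without array 4), with 3 of 5 cKO arrays outside the embryo range. Of 25 thalamus and habenula genes, 3 were higher (Gbx2, Rgs4 and Olig3) and 0 lower, with a median of 0.09. Without array 4 their changes were 2.40, 2.34 and 1.01, against 2.51, 2.39 and 1.04 with it, and none was called. Without arrays 2 and 4 all 3 were called, with adjusted p 0.00321 for Gbx2, 0.00056 for Rgs4 and 0.000364 for Olig3. Of 21 deep-layer and subplate genes 1 was lower (Tbr1) and 0 higher with all arrays. Without array 2, 4 of them were higher (Lmo3, Nxph4, Tle4 and Lpar1, adjusted p 0.00637 to 0.0350 by limma) and 1 lower. Without arrays 2 and 4, 2 were higher and 1 lower. Of 14 upper-layer genes 1 was lower (Cdh13), and of 12 Cajal-Retzius genes 1 was higher (Ebf1), with a median of -0.26. Crabp2, a retinoic acid binding protein, rose 2.26-fold (adjusted p 0.0137, and 0.062 without array 4) among 7 retinoid genes. Crabp2 overlapped between groups: embryo array 1 was at 9.75 and the cKO arrays at 9.41 to 10.08. No gene of the 28 chromatin regulators passed with all arrays or without array 2. None of 23 Wnt pathway and 9 immediate early genes passed with all arrays, and 2 Wnt genes and 1 immediate early gene did without array 2.

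**Figure D4:**
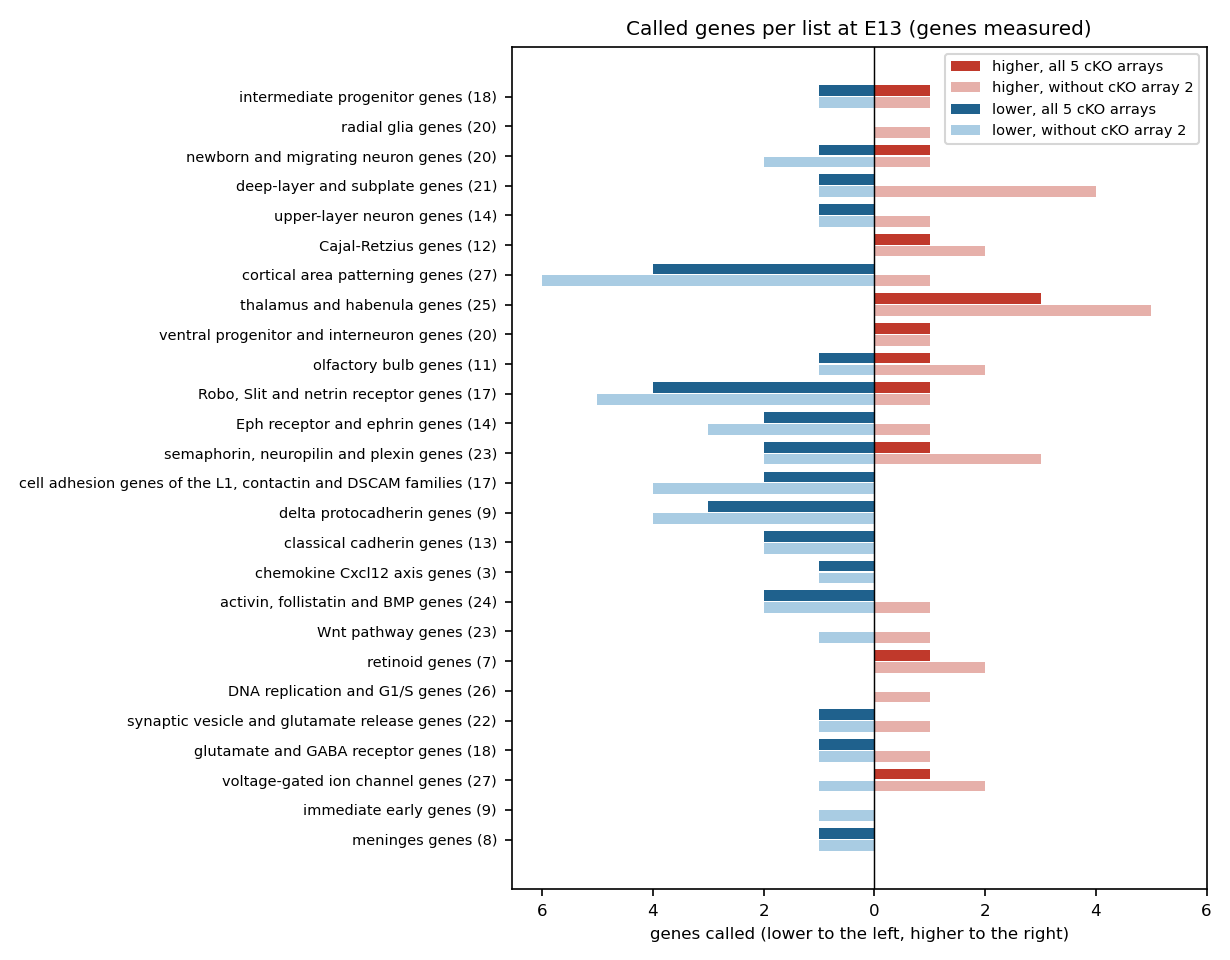
Number of called genes per list at E13, lower genes to the left and higher genes to the right, with the number measured in parentheses. Dark bars are counts with all 5 cKO arrays and pale bars counts without cKO array 2, and lists with no call in either are left out. Cortical area genes were lower 4 times (6 without array 2) and thalamus and habenula genes higher 3 times (5 without array 2).

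Leaving out array 2 brought further members of the lists past the threshold, named here after their values were seen. Ebf3, an Ebf factor of Cajal-Retzius cells, was at 11.23 to 12.01 in the embryo arrays and at 14.08, 11.49, 14.08, 13.76 and 14.15 on the cKO arrays. Its change was 1.75 (adjusted p 0.0771) with array 2 and 2.26 ± 0.45 (adjusted p 0.00233) without. Cdhr1, a cadherin-related protein of the olfactory bulb and retina, read 8.47, 5.65, 8.71, 7.93 and 7.93 on the cKO arrays against 5.26 to 6.60, with adjusted p 0.0709 and 0.00314. Pou4f1, a habenula factor, was higher by 1.40 ± 0.33 without array 2 (adjusted p 0.0139). Wnt7b, a Wnt ligand of cortical neurons, was at 11.40 to 12.04 in the embryo arrays and at 10.73, 11.56, 10.70, 10.78 and 10.82 on the cKO arrays, lower by -0.94 ± 0.23 without array 2 (adjusted p 0.0193). Pcdh9, a delta protocadherin, was lower too (-0.76 ± 0.16, adjusted p 0.00329).

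T-box proteins bind the letters AGGTGTGA, which read TCACACCT on the other strand. Windows of 250 bases before the start sites of genes in RefSeq (build GRCm38.p6), given on the strand of the gene, were searched for these letters on both strands. They were found for 74 of 8628 tested genes with a window (0.86%), for 0 of 70 higher genes and for 2 of 60 lower genes (3.33%), which is a description and names no site. The letters GGTGTG, or on the other strand CACACC, which the longer motif contains, were in 17.8% of windows of all tested genes, in 15.7% of the higher and in 21.7% of the lower genes. The 2 lower genes with the longer motif are shown, with the motif in capitals, 5′ to 3′ on the strand of the gene. Lratd1 lies on the minus strand and its window is chr12:14152039-14152288, and 9130024F11Rik lies on the plus strand with the window chr1:56971219-56971468.
Lratd1: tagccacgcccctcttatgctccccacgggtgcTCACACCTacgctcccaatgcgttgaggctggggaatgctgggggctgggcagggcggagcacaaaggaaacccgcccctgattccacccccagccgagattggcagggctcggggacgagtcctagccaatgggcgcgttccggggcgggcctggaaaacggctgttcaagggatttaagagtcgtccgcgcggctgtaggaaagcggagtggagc
9130024F11Rik: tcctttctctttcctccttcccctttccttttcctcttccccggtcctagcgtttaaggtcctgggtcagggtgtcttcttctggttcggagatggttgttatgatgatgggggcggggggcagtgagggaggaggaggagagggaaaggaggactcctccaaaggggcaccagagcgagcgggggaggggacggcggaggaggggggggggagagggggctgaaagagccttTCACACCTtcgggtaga
In Lratd1 the motif began 217 bases before the start and in 9130024F11Rik 17 bases before it. Lratd1 was at 7.70 to 8.38 in the embryo arrays and at 6.53, 8.09, 6.89, 6.86 and 6.75 on the cKO arrays (-1.12 ± 0.26, adjusted p 0.0212, and 0.0793 without array 4). The transcript 9130024F11Rik was at 8.23 to 10.17 and at 7.42, 9.60, 8.49, 6.94 and 7.07 (-1.60 ± 0.34, adjusted p 0.0148, and 0.0727 without array 4), where array 3 overlapped the embryo range besides array 2.

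At E16, 3 days later, cKO was compared with embryo on 6 and 5 other arrays. There 28 genes were higher (0.263%) and 26 lower (0.244%), and 1 cKO array, array 3, resembled the E16 embryo arrays. Over the 159 genes called at E13 its mean difference in the E13 direction was -0.027, and that of the other 5 cKO arrays 0.55 to 0.65. Without that array the counts were 130 and 133. The 81 genes higher at E13 had a positive change at E16 in 73 cases, and the 78 lower genes a negative one in 73, while 60.7% of all genes had the same sign at both stages. The median change of the higher genes was 0.94 at E13 and 0.38 at E16, and of the lower genes -0.98 and -0.41. Because the genes were selected by their E13 values and the E16 values include array 3, these medians do not compare effect sizes between stages. Called in the same direction at both stages were 15 genes, 9.43% of the E13 calls and 27.8% of the E16 calls, and 0 were called in opposite directions.

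The 8 genes higher at both stages were Gbx2, Lmcd1, Adcyap1, Col9a2, Lmo2, Gcg, Lurap1l and Gm11346, and the 7 lower ones Cdh8, Kcnh3, Slit3, Pcdh20, Lrrn3, Lypd6 and Tenm4. Of these, Gbx2, Lmcd1, Lmo2, Gcg, Lurap1l, Gm11346, Lrrn3, Lypd6 and Tenm4 were not called at E13 without array 4, at adjusted p 0.0521 (Gcg) to 0.188 (Lypd6). Gbx2 was higher by 3.68 at E16 (adjusted p 0.0043), Lmcd1 by 2.65 (adjusted p 0.0121) and Adcyap1 by 1.45 (adjusted p 0.0402). Cdh8 changed by -1.24 (adjusted p 0.0483), Kcnh3 by -1.39 (adjusted p 0.0251) and Pcdh20 by -1.23 (adjusted p 0.00334). Pdzrn3 was at a mean of 12.15 in the E16 embryo arrays, near its E13 cKO level, and differed by 0.70 at E16 (adjusted p 0.956). Slco4a1 differed by 0.05 at E16 (adjusted p 1), from 2.26 at E13, and the difference between stages had an adjusted p of 0.108. Tbr1 differed by -0.26 at E16 (adjusted p 0.995), and the difference between the stages did not pass (-0.91, adjusted p 1).

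**Figure D5:**
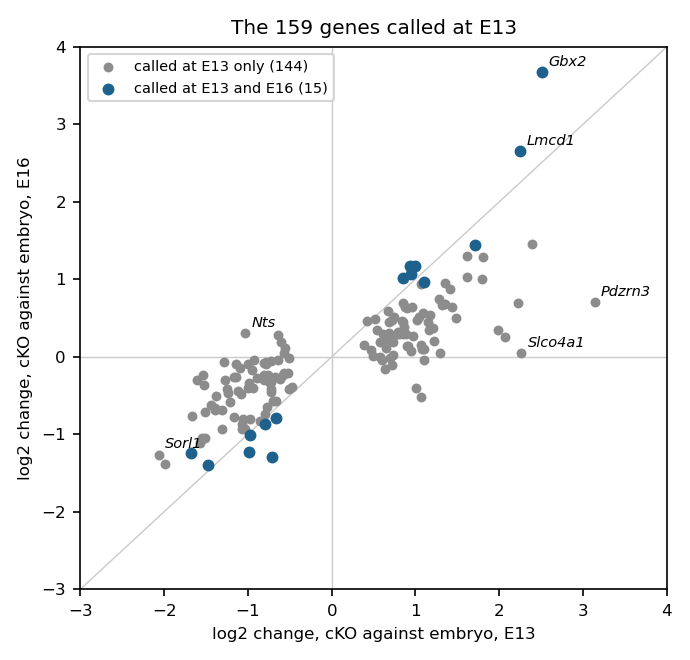
Log2 change between cKO and embryo at E13 (horizontal) and E16 (vertical) of the 159 genes called at E13, with all arrays. Each point is 1 gene, blue where it was also called at E16 (15 genes), and the diagonal marks equal changes. Most points lie in the upper right and lower left and closer to 0 at E16, the genes having been selected by their E13 values.

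The change differed between stages beyond the threshold for 2 genes (0.0188%), Nts and Tac2, and for 380 at an unadjusted p under 0.05 by limma. Nts, the precursor of neurotensin, was at 5.59, 6.30 and 6.53 (lowest, median and highest) in the E13 embryo arrays and at 5.02, 5.38, 5.00, 5.19 and 4.99 on the cKO arrays. All 5 cKO arrays, array 2 included, were below every embryo array and not above background, so Nts was at least 1.40-fold lower (adjusted p 0.00145). At E16 the mean of Nts was 4.87 in embryo and 5.18 in cKO, both near the E13 cKO levels. Its change at E16 was 0.31 (adjusted p 0.773 by limma), and the difference between stages was -1.34 (adjusted p 0.0307). Tac2, the precursor of neurokinin B, was not above background on any E13 array and changed by -1.46 at E16 (adjusted p 0.000107), a stage difference of 1.42 (adjusted p 0.0307). Without the arrays at embryo levels at both stages, 55 genes passed for the stage difference, and none did after median scaling or without a filter on dim probes.

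On chromosome 9, which carries Eomes, lay 6 of the 159 called genes (3.77%) and 614 of 10652 tested genes (5.76%), given as a description with no test.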

How the data were processed

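The authors deposited intensity values as non-normalised average signals per probe, per the file headers, with a detection p-value per probe. Deposited log2 values of a series matrix served as an alternative. No source used here names the authors' tools. Signals of 27 arrays (median per E13 array 10.0 to 15.2) were background corrected with limma 3.58.1 in R 4.3.3 (normexp, negative controls inferred from detection p-values, offset 16), quantile normalised as 1 set and log2 transformed. Probes detected at p under 0.01 in at least 5 arrays were kept (20498), and each of 10663 genes was represented by its brightest probe, named by the platform annotation. Of 61 called genes with several probes, 4 had a probe of opposite sign. One linear model with 1 mean per group over all arrays was moderated by empirical Bayes, two-sided, Benjamini-Hochberg adjusted. An "at least" fold sets the dim group at its background limit.

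Groups came from sample titles and columns were matched to groups by name. The 36 gene lists, the members and the rule for named genes (Eomes, 15 rises, 15 falls, up to 6 called genes per list, 7 markers, stage differences) were chosen with earlier results of these data known. The other genes named, such as Fezf2, Emx1, Cxcr4, Robo1, Slc17a6, Neurog2, Neurod1 and those with a promoter window shown, were chosen after their values were seen. The procedure was tested on simulated data with independent noise per gene and the same shift on every E13 cKO array. The simulation held no cKO array at embryo levels and none with other tissues, so it does not check the calls against these. Precision is limited by the number of arrays. No slide or scan block was run, since the files used here name neither. The labels' replicate numbers stand on matrix columns alone. Correlations of same-numbered deviations were 0.41, 0.20, -0.20, -0.096 and 0.19. Values of both signs do not settle whether the numbers pair samples, and the main model used no pairing. The signal column names of both groups carry numbers that interleave, and no source used here says what they mean.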

Additional observations from a re-analysis of the deposited data

Results flagged for a closer look

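Among 63 named genes, 25 of 126 groups had 1 array far from the others by Dixon's ratio. This ratio is gap over range, and the limit was 0.71 for 5 arrays and 0.625 for 6. Most of these genes were chosen by their calls on these same arrays, so the count is not set against chance. cKO array 2 gave 18 of the 25. It was the lowest cKO array for Pdzrn3 (0.888), Gbx2 (0.81), Rgs4 (0.743), Slco4a1 (0.771), Lmcd1 (0.804), Adcyap1 (0.952), Fam122b (0.832), Ebf1 (0.96), Insm1 (0.74) and Nrp1 (0.859), all higher in the other cKO arrays. It was the highest for Sorl1 (0.839), Cdh8 (0.769), Fst (0.711), Slc17a7 (0.795), Kcnh3 (0.821), Ryr3 (0.869), Robo2 (0.843) and Sema3a (0.791). cKO array 4 was the highest for Gad1 (0.731), Cldn5 (0.928) and C1qb (0.963). Embryo array 1 was the highest for Ttr (0.663), Col1a2 (0.806) and Nrcam (0.658) and the lowest for Dennd1c (0.746).

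The genotype change differed between E13 and E16 for Nts and Tac2, each with an adjusted p of 0.0307 by limma. For Nts the difference was -1.34 on the log2 scale (-1.03 at E13 and 0.31 at E16). Its E16 means, 4.87 in embryo and 5.18 in cKO, were near its E13 cKO levels, which were not above background. For Tac2, not above background on any E13 array, the difference was 1.42.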

How the results depend on the processing

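The E13 counts moved with the arrays that entered. Leaving out 1 array gave 18 to 194 higher and 16 to 169 lower genes, 0 to 50 genes with a stage difference and an Eomes change of 0.18 to 0.34. Normalising and fitting only the 11 E13 arrays gave 5 and 3, and fitting only the E13 groups 7 and 4. Scaling to a common median gave 52 and 61, the series matrix values 47 and 59 of 7520 genes, and array weights 274 and 246. Without the arrays at embryo levels at both stages the counts were 213 and 187. Some settings were chosen after seeing the data. Leaving out cKO arrays 2 and 4 gave 139 and 116, and leaving out array 2 with only the E13 groups fitted 297 and 203. The matrix values with the replicate block, also chosen then, gave 34 and 44. Whether the replicate numbers pair samples is not known. The other settings kept both counts within 1.5 times, and the direction of Eomes was positive under each setting that measured it.

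Stage differences numbered 1 without normexp, 10 with array weights, 55 without the arrays at embryo levels, 31 without cKO arrays 2 and 4, and 0 with an offset of 50, median scaling, matrix values with or without the replicate block, no filter, the stricter filter or only embryonic arrays. Signs turned for Ptpn14 without a filter (-0.10), for Tac2 without a filter (0.039) or with array weights (0.0055), and for Gad1 with array weights (-0.17). Leaving out 1 array moved Gad1 from -0.28 to 0.73, Cldn5 from -0.030 to 0.77 and C1qb from -0.018 to 0.53, each lowest and below 0 without cKO array 4. Without arrays 2 and 4 they were at -0.33, -0.038 and -0.023. The cause was not tested. Of 55 named called genes, 51 lost the call with only the E13 groups fitted, 37 without cKO array 1, 32 without array 4, 25 each without arrays 3 and 5, and 0 without array 2. With only the E13 arrays normalised and fitted, 50 of 52 did.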

Other observations

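Other called genes, named after their values were seen, fell into further roles. Among AP-2 factors, Tfap2a was lower (-1.29 ± 0.23, adjusted p 0.00402 by limma) and read 6.26 to 8.04 on the embryo arrays and 5.54, 6.41, 5.52, 5.23 and 5.63 on the cKO arrays. Tfap2b was higher (1.22 ± 0.27, adjusted p 0.0162), at 4.90 to 6.68 and at 7.77, 5.86, 6.78, 7.25 and 7.13. Zeb2 and Bcl6, transcriptional repressors of cortical neurons, were lower (-0.83 ± 0.20 and -1.21 ± 0.29), and Lmo2, a LIM-only cofactor, was higher (1.00 ± 0.25).

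Activators of small GTPases went both ways. Prex1 (-1.31 ± 0.29), Tiam2 (-1.14 ± 0.26) and Rasgrp1 (-1.31 ± 0.34) were lower, and Vav2 (0.66 ± 0.14) and Vav3 (0.86 ± 0.21) were higher. Among growth factors and their receptors, Kit (-1.04 ± 0.23) and Pdgfc (-0.89 ± 0.18) were lower. Fgf9 was not above background on any embryo array and was at least 1.29-fold higher. Gcg, the precursor of glucagon and related peptides, was at 8.55 to 8.83 on the embryo arrays and at 9.79, 9.05, 10.09, 9.61 and 9.71 on the cKO arrays, with array 2 above the embryo range too (0.94 ± 0.21, adjusted p 0.0157).

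Of the genes named here, Tfap2a kept its call without cKO array 4 (adjusted p 0.0245 by limma). The other 13 did not, at adjusted p 0.0521 (Gcg) to 0.18 (Rasgrp1), and all 14 were called without cKO arrays 2 and 4, at adjusted p up to 0.0434 (Rasgrp1).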
